A study of Rattus norvegicus with 18 samples.

Results

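The 34 genes described here encode proteins of the chemical synapse, from the membrane of the synaptic vesicle through the fusion machinery and the active zone to the postsynaptic scaffold and the adhesion molecules that span the cleft. They were taken by gene symbol from a table of 34873 genes counted by RNA-seq in rat brain. Each of the 34 was found and had enough counts to be among the 16581 genes tested. Shank2 had 2 rows in the table, and the row with more counts was used, since the other held at most 5 counts in a library.

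At a chemical synapse, neurotransmitter-filled vesicles are tethered by synapsins, docked and primed at the active zone by RIM, Munc13, Bassoon and Piccolo, and fused with the membrane when a vesicle VAMP zips together with SNAP-25 and syntaxin. Calcium entering the terminal is read by synaptotagmins, complexins hold and then assist the SNARE bundle, and the ATPase NSF takes spent bundles apart. On the receiving side, PSD-95, SAPAP and SHANK proteins stack into a scaffold beneath the glutamate receptors, with the kinase CaMKII among its most abundant enzymes, while neurexins and neuroligins bind each other across the cleft.

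Libraries came from wild-type, untreated rats (NC), from wild-type rats that had inhaled carbon monoxide (CO), and from rats labelled as a knock-down of Clcf1 that had also inhaled it (CLCF1), with 6 libraries in each of these 3 groups. Per the series' design text, exposure was 1000 ppm for 40 min followed by 3000 ppm for 20 min, with carboxyhemoglobin above 60%. The same text describes lentiviral knock-down in bone marrow-derived macrophages and their transfer into rats depleted of their own macrophages by liposomes, without stating whether NC and CO rats went through depletion and transfer, so the knock-down may not be all that separates CLCF1 from CO. It gives neither age, brain region nor time after exposure for these libraries, and the labels do not tie a library to an animal, so a p-value reflects the spread between libraries, which may be technical. Clcf1, the gene of a secreted cytokine of the ciliary neurotrophic factor family, had 1 to 7 counts per NC library, 80 to 118 in CO and 0 to 3 in CLCF1.

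Library totals ran from 15.1 to 20.3 M counts, of which the 34 genes took 0.973% to 1.44%. The brain label fitted the marker genes, with 14 of 14 neuronal genes outside the synapse tested and a summed level of 4368 to 6694 CPM per library, CPM standing for counts per 1 M after TMM scaling of the libraries. Libraries 3 to 6 of each group stood apart from libraries 1 and 2. No gene without a count in libraries 1 and 2 of a group had a count in libraries 3 to 6 of that group, in 0 of 42660 cases over the 3 groups. Totals of libraries 3 to 6 also lay close to the mean of libraries 1 and 2, for example 17.4 to 17.8 M in NC against a mean of 17.7 M from totals of 15.1 and 20.3 M. Whether libraries 3 to 6 are independent of libraries 1 and 2 was not tested. If they are not, a group holds fewer than 6 independent libraries. Standard errors and p-values from the fit of all libraries would then tend to be too small. An SD of 6 libraries would not measure the spread of 6 independent ones. Calls among the 34 genes, and those given with values from other lists, are therefore also given for libraries 1 and 2 alone. In that smaller fit no synaptic gene passed. Of all 16820 genes 4 did in CO against NC, 8 in CLCF1 against CO and 2 in CLCF1 against NC. In the same order, 594, 817 and 418 genes (3.53%, 4.86% and 2.49%) had an unadjusted p under 0.05. Those shares are no larger than that threshold passes when nothing differs. Of the 34 synaptic genes, 2, 1 and 1 had an unadjusted p under 0.05.

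Promoter windows of the synaptic genes were read from RefSeq (build GRCr8, 250 bases before to 50 after the start of a gene), and 28 of the 34 matched by symbol. The palindromic cAMP response element TGACGTCA, the site of the activity-regulated factor CREB, was present in the windows of Syn1 and Vamp1, and in 1.83% of all 33469 windows. Its shorter form TGACG, which lies inside the palindrome, occurred on either strand in 9 of the 28 (Syn1, Rab3a, Syt4, Vamp1, Vamp2, Cplx1, Cplx2, Unc13a and Camk2a) and in 21.2% of all windows. Letters of the RE1 element, bound by the neuronal gene repressor REST, were searched as TTCAGCACC and GGACAGC. The former was found in Unc13a alone among the 28 and in 0.356% of all windows, and the latter in Syt2, Unc13a, Pclo and Dlgap1 and in 6.59%. A match describes letters only and does not show binding. The windows of Syn1, Vamp1 and Syt4 are shown because these 3 genes passed the test in more than 1 comparison below and hold TGACG or its palindrome. Capitals mark TGACGTCA in Syn1 and Vamp1, whose first base lies 190 and 71 bases before the start, and the reverse complement of TGACG in Syt4, which occurs at 12 bases and at 1 base before it. The windows are chrX:3725495-3725794 on the plus strand for Syn1, chr4:159698644-159698943 on the plus strand for Vamp1 and chr18:23320814-23321113 on the minus strand for Syt4.
Syn1: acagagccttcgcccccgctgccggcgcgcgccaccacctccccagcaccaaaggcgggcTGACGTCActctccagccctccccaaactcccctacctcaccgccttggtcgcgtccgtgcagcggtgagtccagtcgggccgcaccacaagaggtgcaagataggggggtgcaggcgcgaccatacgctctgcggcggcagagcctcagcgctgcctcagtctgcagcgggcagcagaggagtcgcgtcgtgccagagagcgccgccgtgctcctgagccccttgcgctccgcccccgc
Vamp1: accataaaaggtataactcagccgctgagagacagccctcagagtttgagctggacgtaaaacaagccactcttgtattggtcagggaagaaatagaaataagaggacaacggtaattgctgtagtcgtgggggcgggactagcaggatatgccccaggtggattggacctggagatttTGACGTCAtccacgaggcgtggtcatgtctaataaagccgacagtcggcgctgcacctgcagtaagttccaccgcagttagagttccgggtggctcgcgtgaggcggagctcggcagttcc
Syt4: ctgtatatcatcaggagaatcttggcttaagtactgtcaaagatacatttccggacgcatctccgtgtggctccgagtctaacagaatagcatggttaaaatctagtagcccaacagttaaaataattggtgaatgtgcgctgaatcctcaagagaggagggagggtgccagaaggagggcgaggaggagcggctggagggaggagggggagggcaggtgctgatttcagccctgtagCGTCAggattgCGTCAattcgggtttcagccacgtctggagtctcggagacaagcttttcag

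Levels were compared between genes only as CPM per kilobase of the gene length given in the table. Snap25, the membrane-anchored SNARE of the terminal, had the highest mean over the 18 libraries (1029 CPM per kilobase). It was followed by Syp, which encodes the vesicle membrane protein synaptophysin (511), Vamp2, the main vesicle SNARE of the forebrain (462), and Camk2a, the alpha subunit of CaMKII (332). At the other end stood Pclo (3.08), the calcium sensor Syt2 (2.93), Syn3 (1.90), Sv2c (1.45) and Shank2 (0.722). Within families the levels were uneven. Syt1 was at 223 CPM per kilobase against 15.7 for Syt7, and Sv2a at 94.9 against 61.2 for Sv2b.

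**Figure D1:**
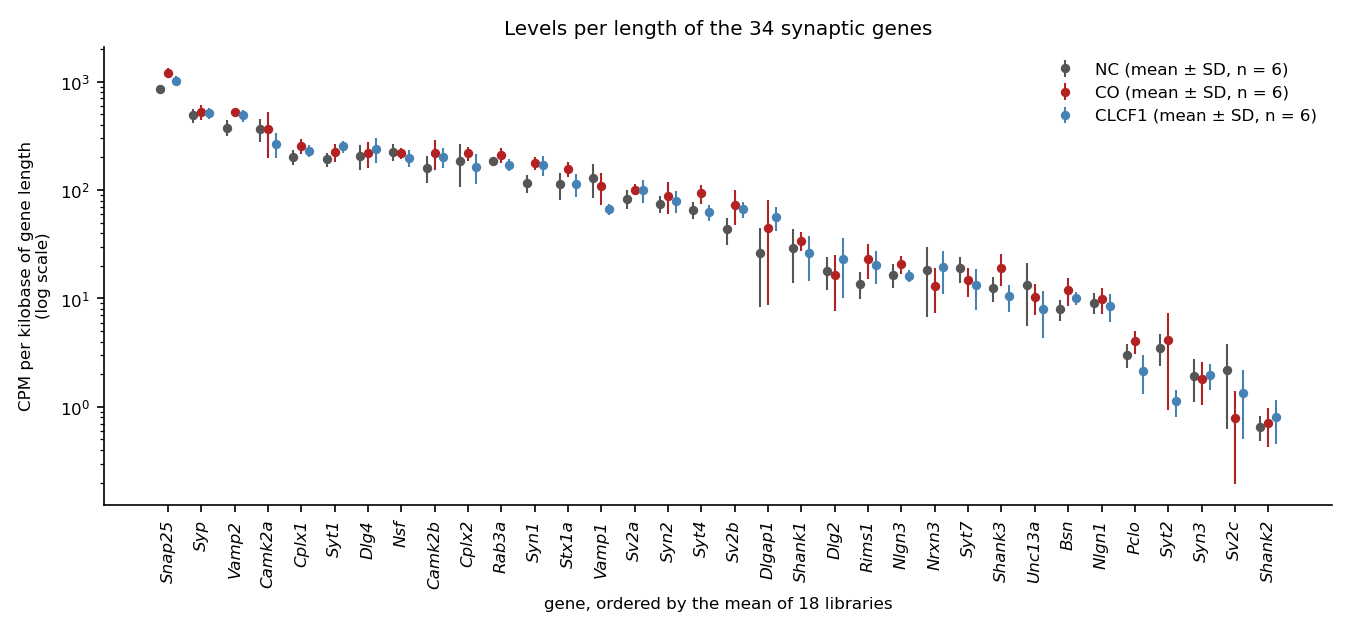
Level of each of the 34 synaptic genes in CPM per kilobase of gene length (log scale), ordered by the mean of 18 libraries. Points are group means and bars the SD of 6 libraries. Levels span from 1029 for Snap25 to 0.722 for Shank2, and the CLCF1 mean of Syt2 lies below its NC and CO means.

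The CO group was compared with NC to ask what carbon monoxide inhalation did to synaptic transcripts in wild-type brain. Of the 34 genes, 7 rose (20.6%), none fell and 27 did not pass, where 6.32% of all genes tested rose and 6.40% fell. The count of 7 dropped to 4 without NC library 1, 3 or 5 or without CO library 6. The genes that rose were Snap25, Syn1, Vamp2, Sv2b, Syt4, Bsn and Rims1, by 1.38-fold to 1.70-fold. The median log2 fold change was 0.25 over the 34 genes, against 0.01 over all genes tested, and 25 of the 34 values were positive. They encode vesicle, calcium sensor, SNARE and active zone proteins, and none of the 8 postsynaptic scaffold genes passed. In tissue RNA, fewer cells of a type and less RNA per cell cannot be told apart. Calls here and below are adjusted p under 0.05 in the quasi-likelihood test of edgeR, adjusted by Benjamini-Hochberg over all 16581 genes, ± is the SD of 6 libraries where it follows CPM and the standard error where it follows a log2 fold change.

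Among the 8 vesicle genes, 2 rose in CO. Syn1 encodes synapsin I, which tethers vesicles to the cytoskeleton and to each other. It lies on chromosome X from 1321315 to 1379198 on the plus strand in the table, whose genome build is not named. Syn1 ran from 276 to 449 CPM in NC (median 363), from 460.3 to 690.3 in CO (median 560.2) and from 459 to 746 in CLCF1 (median 489). All 6 CO libraries were above all 6 NC libraries. The mean went from 367 ± 67.6 to 563 ± 81.2 CPM, a log2 fold change of 0.62 ± 0.14 (adjusted p = 0.00980), and libraries 1 and 2 alone gave 0.44. Strand is not stated for the counting, and 3 genes on the minus strand overlap the span of Syn1. They are LOC102555453 (means of 75.3 CPM in NC, 51.2 in CO and 104 in CLCF1), Araf, which overlaps the last bases of Syn1 (142, 144 and 126), and Timp1 (10.3, 17.9 and 15.6).

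Sv2b encodes a glycoprotein of the vesicle membrane, and the table places it on chromosome 1 from 136664204 to 136842247 on the minus strand. Sv2b ran from 181 to 318 CPM in NC (median 195), from 261 to 633 in CO (median 359) and from 275 to 407 in CLCF1 (median 370.3). The groups overlapped, with 4 of 6 CO libraries above every NC library. The log2 fold change was 0.76 ± 0.21 (adjusted p = 0.0227), and 0.51 in libraries 1 and 2 alone. Without NC library 5 or CO library 6 it did not pass (adjusted p = 0.05002 and 0.0550). The relative Sv2c, a form known for its level in basal ganglia, had the lowest value of the role at -1.47 ± 0.53 but did not pass (adjusted p = 0.0729). Its mean was 6.50 ± 4.65 CPM in NC and 2.34 ± 1.77 in CO, and DESeq2 gave an adjusted p of 0.0287 for it. The other vesicle genes Syn2, Syn3, Syp, Sv2a and Rab3a lay between -0.10 and 0.28 and did not pass.

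Of the 4 synaptotagmins, Syt4 alone passed. Syt4 does not bind calcium through its first C2 domain as Syt1 does, and it is known in rodents as a gene induced by neuronal activity. It lies on chromosome 18 from 24172587 to 24182012 on the minus strand. Syt4 ran from 225 to 348 CPM in NC (median 242), from 299 to 490.0 in CO (median 341) and from 195 to 316 in CLCF1 (median 234). NC library 6, at 348 CPM, reached into the CO range, and 3 of 6 CO libraries were above every NC library. The log2 fold change was 0.50 ± 0.14 (adjusted p = 0.0298), and 0.50 in libraries 1 and 2 alone. It missed the threshold without NC library 1, 2, 3 or 5 or CO library 4 or 6 (adjusted p from 0.0501 to 0.0677). Syt1, the fast sensor of forebrain terminals, was at 0.23 ± 0.13 (adjusted p = 0.267), Syt2 at 0.25 ± 0.35 (adjusted p = 0.680) and the slow sensor Syt7 at -0.38 ± 0.25 (adjusted p = 0.325).

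The SNARE machinery gave 2 of 7 genes higher in CO. Snap25, on chromosome 3 from 129599353 to 129788400 on the plus strand, supplies 2 of the helices of the fusion bundle. Snap25 ran from 1714 to 1975 CPM in NC (median 1795), from 2113 to 2899.9 in CO (median 2566) and from 1840.4 to 2406 in CLCF1 (median 2151). The CO libraries lay wholly above the NC libraries, and the CLCF1 libraries in between overlapped both. Its log2 fold change of 0.48 ± 0.09 had the smallest adjusted p of the 34 genes in CO against NC (0.00315), with 0.43 in libraries 1 and 2 alone.

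Vamp2, on chromosome 10 from 55675575 to 55679450 on the plus strand, encodes synaptobrevin 2, the vesicle partner of SNAP-25. Vamp2 ran from 595 to 955 CPM in NC (median 843), from 956 to 1246 in CO (median 1168) and from 859 to 1254 in CLCF1 (median 1059). The lowest CO library was just above the highest NC library, so the groups did not overlap. The log2 fold change was 0.46 ± 0.12 (adjusted p = 0.0174), with 0.33 in libraries 1 and 2 alone. Snap25, Vamp2 and Syn1 were the genes among the 34 whose 6 CO and 6 NC libraries did not overlap. That pattern was shown by 6.35% of all genes tested. These 3 also passed whichever single library was left out. In libraries 1 and 2 alone none of the 3 passed (adjusted p = 0.999 for each). From libraries 3 to 6 alone Snap25 passed (adjusted p = 0.0263), and Syn1 and Vamp2 did not (adjusted p = 0.0548 and 0.0817). If libraries 3 to 6 are not independent of libraries 1 and 2, neither the separation nor leaving out 1 library is a full check. The syntaxin gene Stx1a (0.47 ± 0.18, adjusted p = 0.0981) and the complexin gene Cplx1 (0.32 ± 0.12, adjusted p = 0.0958) did not pass. Vamp1, a second synaptobrevin used mainly in brainstem, spinal cord and motor terminals, had the lowest value of the role at -0.24 ± 0.23 (adjusted p = 0.513).

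In the active zone, 2 of 4 genes rose. Bsn encodes Bassoon, a giant scaffold that organizes the release site, and lies on chromosome 8 from 116873721 to 116965396 on the minus strand. Bsn ran from 93.9 to 172 CPM in NC (median 122), from 147 to 283 in CO (median 169.6) and from 129 to 187 in CLCF1 (median 164). NC library 2, at 172 CPM, sat among the CO values, and 3 of 6 CO libraries exceeded all of NC. The log2 fold change was 0.59 ± 0.17 (adjusted p = 0.0307), and 0.61 in libraries 1 and 2 alone. The call was lost without NC library 1, 3, 4 or 6 or CO library 2 or 3 (adjusted p from 0.0522 to 0.0702), with library size alone as scaling (adjusted p = 0.0512) and with only the compared groups in the fit (adjusted p = 0.0632).

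Rims1 encodes RIM1, which ties vesicle priming to calcium channels, and lies on chromosome 9 from 28442229 to 28973246 on the minus strand. Rims1 ran from 58.1 to 119.6 CPM in NC (median 72.9), from 91.2 to 204 in CO (median 125) and from 83.4 to 198 in CLCF1 (median 108). Again NC library 2 overlapped the CO range, and 3 of 6 CO libraries were above every NC library. At 0.77 ± 0.24 Rims1 had the highest log2 fold change of the 34 genes (adjusted p = 0.0414), with 0.49 in libraries 1 and 2 alone. Of the 7 calls it was lost most often, missing the threshold without NC library 1, 3, 4, 5 or 6 or CO library 2, 3 or 6 (adjusted p from 0.0554 to 0.0972), with library size alone (adjusted p = 0.0627) and with only the compared groups in the fit (adjusted p = 0.0525). Pclo, the gene of the Bassoon relative Piccolo, was at 0.42 ± 0.24 (adjusted p = 0.252), and the priming factor gene Unc13a at -0.38 ± 0.34 (adjusted p = 0.478).

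None of the 8 postsynaptic genes and none of the 3 adhesion genes passed in CO against NC. Shank3, which encodes a master scaffold of the postsynaptic density, came nearest at 0.62 ± 0.23 (adjusted p = 0.0835). Dlgap1, the gene of the SAPAP1 linker between PSD-95 and SHANK, had the highest value at 0.76 ± 0.44 (adjusted p = 0.260), with CO libraries spread from 104 to 576 CPM. The PSD-95 gene Dlg4 was at 0.07 ± 0.20 (adjusted p = 0.846), Dlg2 at -0.13 ± 0.39 (adjusted p = 0.860) and Camk2a at -0.02 ± 0.25 (adjusted p = 0.967). The standard errors of Dlg4, Dlg2 and Camk2a leave room for the smaller of the rises seen in presynaptic genes, such as 0.46 for Vamp2. Of the adhesion genes, Nlgn3 was at 0.33 ± 0.15 (adjusted p = 0.155) and Nrxn3 at -0.47 ± 0.38 (adjusted p = 0.436).

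**Figure D2:**
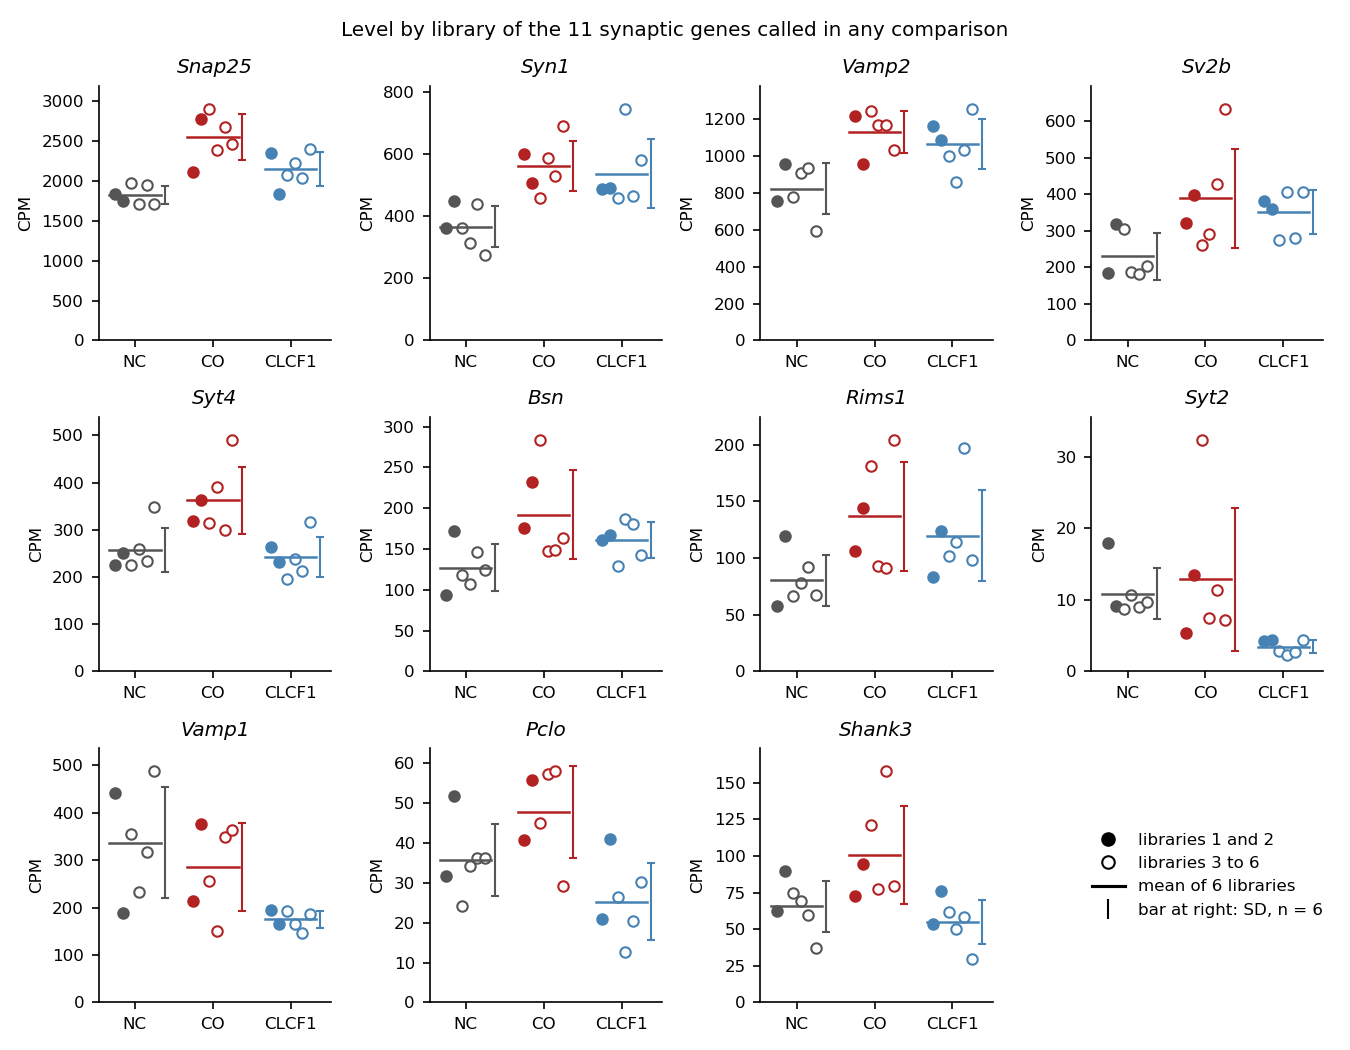
CPM in each library of the 11 synaptic genes that passed the test in at least 1 comparison, with group means and SDs (n = 6). Filled points are libraries 1 and 2 and open points libraries 3 to 6. For Snap25, Syn1 and Vamp2 every CO point lies above every NC point, and for Syt2 every CLCF1 point, at 4.38 CPM or less, lies below all points of the other groups.

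CLCF1 was then compared with CO, groups that share the exposure and differ in the knock-down label. Of the 34 genes, 5 fell (14.7%), none rose and 29 did not pass, where 8.34% of all genes tested fell and 8.63% rose. The genes that fell were Syt2, Syt4, Pclo, Shank3 and Vamp1, by 1.49-fold to 3.71-fold. The median log2 fold change of the 34 genes was -0.17, against 0.00 over all genes tested, with 26 negative values. This comparison shares its CO libraries with the one above, so values that are high in CO enter both, and the 2 sets of values are given side by side only.

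Syt2 encodes the fast calcium sensor of many inhibitory, brainstem and motor terminals and lies on chromosome 13 from 51534025 to 51578052 on the plus strand. Syt2 ran from 8.72 to 17.96 CPM in NC (median 9.40), from 5.38 to 32.3 in CO (median 9.45) and from 2.28 to 4.38 in CLCF1 (median 3.57). The 6 CLCF1 libraries were below every library of the other groups. A complete separation of the 6 CLCF1 from the 6 CO libraries was shown by 7.12% of all genes tested, and by Syt2 alone among the 34. Its log2 fold change against CO was -1.89 ± 0.37 (adjusted p = 0.00256), with -1.14 in libraries 1 and 2 alone. CO library 3, at 32.3 CPM, stood far above the rest of its group, and without it the value was -1.37 (adjusted p = 0.00369). Syt1, the sensor that fills the same role in forebrain terminals, was at 0.16 ± 0.13 (adjusted p = 0.427), and Syt7 at -0.16 ± 0.25 (adjusted p = 0.703).

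Syt4, which had risen in CO, was lower in CLCF1 by a log2 fold change of -0.58 ± 0.14 (adjusted p = 0.0103), with -0.47 in libraries 1 and 2 alone. The mean was 363 ± 71.0 CPM in CO and 243 ± 42.7 in CLCF1, and 5 of 6 CLCF1 libraries lay below all CO libraries. Against NC, at 257 ± 46.6 CPM, the CLCF1 value of Syt4 was -0.08 ± 0.14 (adjusted p = 0.767).

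Pclo, on chromosome 4 from 16496895 to 16669368 on the minus strand, was the active zone gene that fell. Pclo ran from 24.2 to 52.0 CPM in NC (median 35.2), from 29.2 to 58.1 in CO (median 50.5) and from 12.7 to 41.1 in CLCF1 (median 23.8). The groups overlapped at their edges, with 4 of 6 CLCF1 libraries below every CO library. Its log2 fold change was -0.91 ± 0.24 (adjusted p = 0.0141), with -0.66 in libraries 1 and 2 alone. Bsn, which encodes the sister scaffold, was at -0.25 ± 0.17 (adjusted p = 0.337), Unc13a at -0.37 ± 0.34 (adjusted p = 0.486) and Rims1 at -0.19 ± 0.24 (adjusted p = 0.626).

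Shank3, on chromosome 7 from 130474508 to 130532758 on the plus strand, was the postsynaptic gene that fell. Shank3 ran from 37.5 to 90.1 CPM in NC (median 65.8), from 72.9 to 158 in CO (median 86.9) and from 29.8 to 76.0 in CLCF1 (median 55.8). A single CLCF1 library, at 76.0 CPM, reached the CO range. Its log2 fold change was -0.88 ± 0.23 (adjusted p = 0.0150), with -0.39 in libraries 1 and 2 alone and -1.13 in libraries 3 to 6 alone. Other postsynaptic genes did not pass. They ran from -0.45 ± 0.25 for Camk2a (adjusted p = 0.235) to 0.50 ± 0.39 for Dlg2 (adjusted p = 0.409), whose product PSD-93 is a relative of PSD-95.

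Vamp1, on chromosome 4 from 157726941 to 157733643 on the plus strand, was the SNARE gene that fell. Vamp1 ran from 188 to 488 CPM in NC (median 336), from 150.3 to 376 in CO (median 303) and from 146 to 194 in CLCF1 (median 176). CLCF1 libraries were tightly grouped at the low end, and the CO range reached as low, so the groups overlapped. The log2 fold change was -0.70 ± 0.23 (adjusted p = 0.0402), with -0.72 in libraries 1 and 2 alone. The call was lost without CO library 2, 5 or 6 or any CLCF1 library from 2 to 6 (adjusted p from 0.0537 to 0.0828). Vamp2 was at -0.09 ± 0.12 (adjusted p = 0.666). Among the other SNARE genes, Snap25 (-0.24 ± 0.09, adjusted p = 0.0747) and Stx1a (-0.47 ± 0.18, adjusted p = 0.0874) came closest to the threshold.

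The 8 vesicle genes and 3 adhesion genes held no call in CLCF1 against CO. Syn1 was at -0.07 ± 0.14 (adjusted p = 0.794), with CLCF1 libraries at 459 to 746 CPM and CO libraries at 460.3 to 690.3. Rab3a, the small GTPase of the vesicle, had the lowest value of the role at -0.29 ± 0.11 (adjusted p = 0.0790), and Sv2c the highest at 0.78 ± 0.53 (adjusted p = 0.332). Nlgn3 was at -0.36 ± 0.15 (adjusted p = 0.113) and Nrxn3 at 0.56 ± 0.38 (adjusted p = 0.334).

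**Figure D3:**
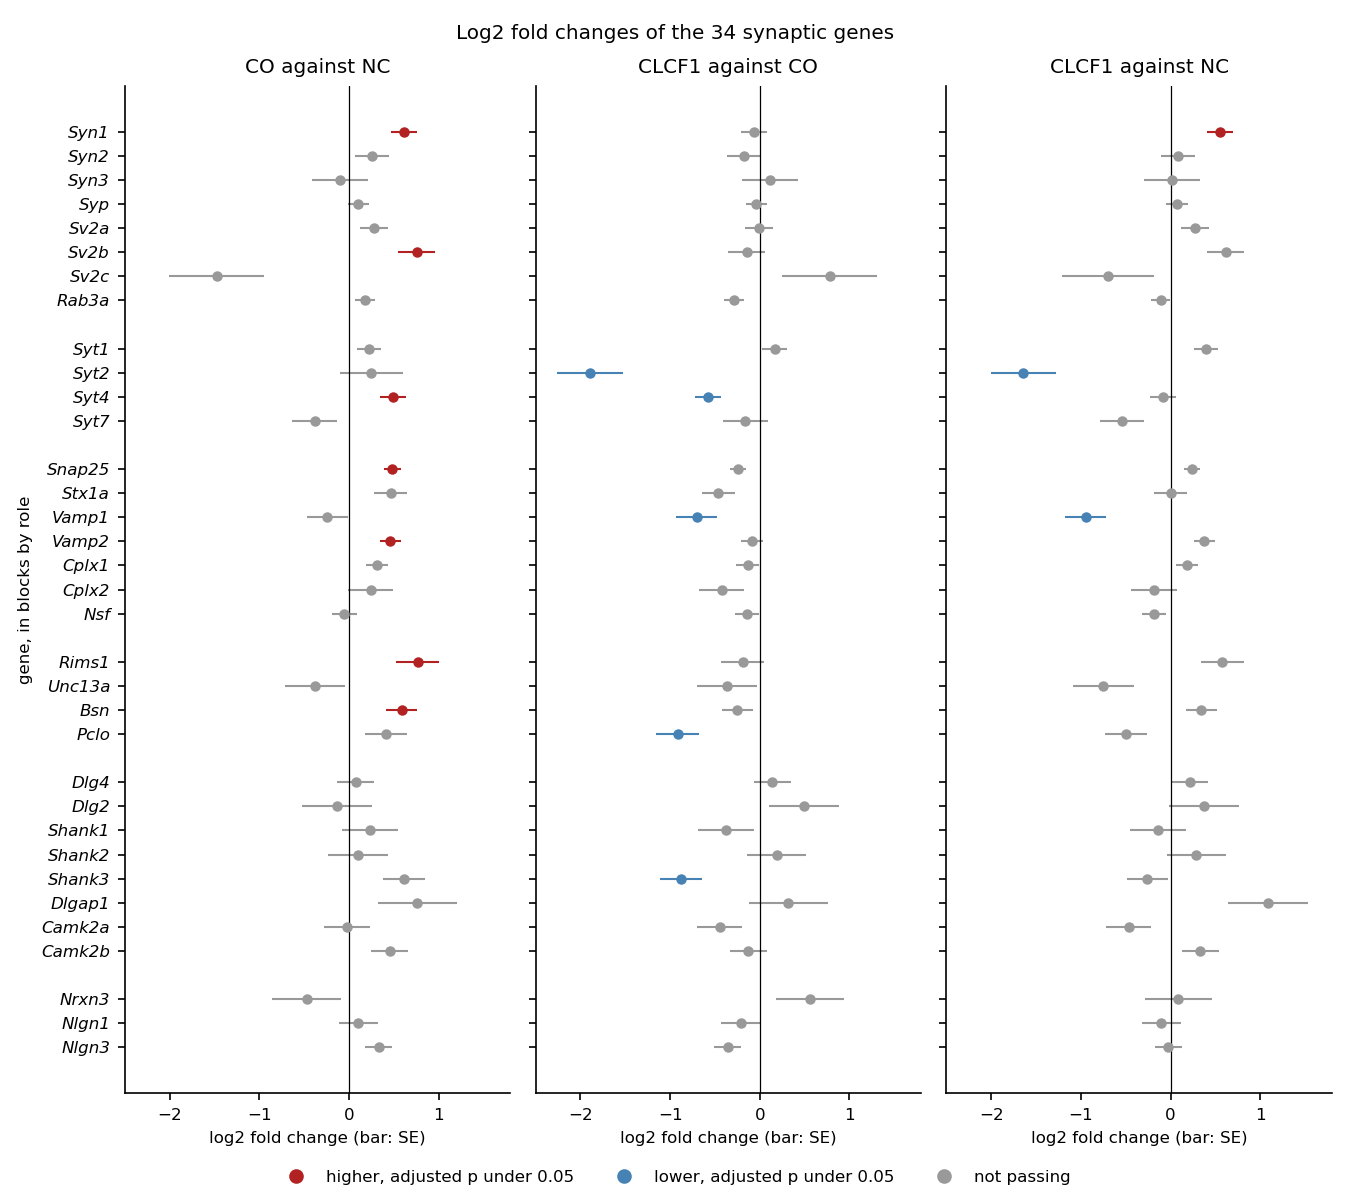
Log2 fold change of each of the 34 genes in the 3 comparisons, in blocks from vesicle genes at the top through calcium sensors, SNARE machinery, active zone and postsynaptic scaffold to adhesion genes at the bottom. Points are estimates and bars standard errors from the fit of 18 libraries, red for higher and blue for lower at an adjusted p under 0.05. The comparisons share libraries, and Syt2 at -1.89 and -1.64 lies farthest from 0 among the genes that passed.

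CLCF1 was last compared with NC, exposed rats that carry the knock-down label against untreated wild-type rats. Macrophage depletion and transfer, not stated for NC, may also separate these groups. Of the 34 genes, 1 rose (2.94%, against 4.43% of all genes tested) and 2 fell (5.88%, against 4.84%), so the shares were near those of all genes. Without NC library 2, 5 of the 34 passed in place of 3. The comparison shares libraries with both of those above. Syn1 was higher at 0.55 ± 0.14 (adjusted p = 0.0217), with 0.25 in libraries 1 and 2 alone. Its 6 CLCF1 libraries were all above the 6 NC libraries, and the call was lost without NC library 6 or CLCF1 library 4 (adjusted p from 0.0558 to 0.0605). Syt2 was lower at -1.64 ± 0.36 (adjusted p = 0.00943), with -1.68 in libraries 1 and 2 alone, and its groups did not overlap either. Groups that did not overlap were seen for 5.63% of all genes tested. Vamp1 was lower at -0.95 ± 0.23 (adjusted p = 0.0155), with -0.83 in libraries 1 and 2 alone and 4 of 6 CLCF1 libraries below all NC libraries. The remaining 31 genes did not pass. Vamp2 (0.38 ± 0.12, adjusted p = 0.0526), Sv2b (0.61 ± 0.21, adjusted p = 0.0655) and Syt1 (0.39 ± 0.13, adjusted p = 0.0707) came closest, and all 3 passed with DESeq2 (adjusted p = 0.0289, 0.0367 and 0.0461). Dlgap1 had the highest value at 1.08 ± 0.45 (adjusted p = 0.131), with 52.3 to 273 CPM in NC and 163 to 356 in CLCF1. The lowest values of the other roles were -0.75 ± 0.34 for Unc13a (adjusted p = 0.169), -0.70 ± 0.52 for Sv2c (adjusted p = 0.431), -0.47 ± 0.25 for Camk2a (adjusted p = 0.261) and -0.10 ± 0.22 for Nlgn1 (adjusted p = 0.820).

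Balance within families was described as the log2 ratio of 2 relatives per gene length in each library, for pairs chosen after their values were seen and with no test. Vamp1 relative to Vamp2 had a mean log2 ratio of -1.62 ± 0.76 (SD, n = 6) in NC, -2.33 ± 0.63 in CO and -2.88 ± 0.19 in CLCF1. The spread of this ratio was smallest in CLCF1, where it ran from -3.10 to -2.65, against -2.62 to -0.56 in NC. Syt2 relative to Syt1 was at -5.81 ± 0.51 in NC, -6.01 ± 1.07 in CO and -7.85 ± 0.49 in CLCF1. Its CLCF1 values, at -7.36 or less, lay below all values of NC and CO, the lowest of which was -7.00. Syn1 relative to Syn2 was at 0.64 ± 0.36, 1.04 ± 0.25 and 1.12 ± 0.25 in the same order.

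Sets of libraries were then read apart for the whole list. In CO against NC, 14 of the 34 genes had libraries 1 and 2 of CO both above libraries 1 and 2 of NC and 0 had them below, where 17.0% and 17.2% of all genes tested did. In CLCF1 against CO, 0 were above and 8 below (16.6% and 14.0% of all genes), and in CLCF1 against NC 6 were above and 1 below (15.5% and 11.7%). Library 2 was above library 1 for 29 of the 34 genes in NC, 23 in CO and 26 in CLCF1, a shift of much of the list between libraries of the same group. The 34 genes had a median log2 fold change in CO against NC of 0.23 from libraries 1 and 2 and of 0.29 from libraries 3 to 6. Corresponding values were -0.19 and -0.17 in CLCF1 against CO and 0.08 and -0.01 in CLCF1 against NC. Whether libraries 3 to 6 are independent of libraries 1 and 2 was not tested, so likeness of these values is no independent support.

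**Figure D4:**
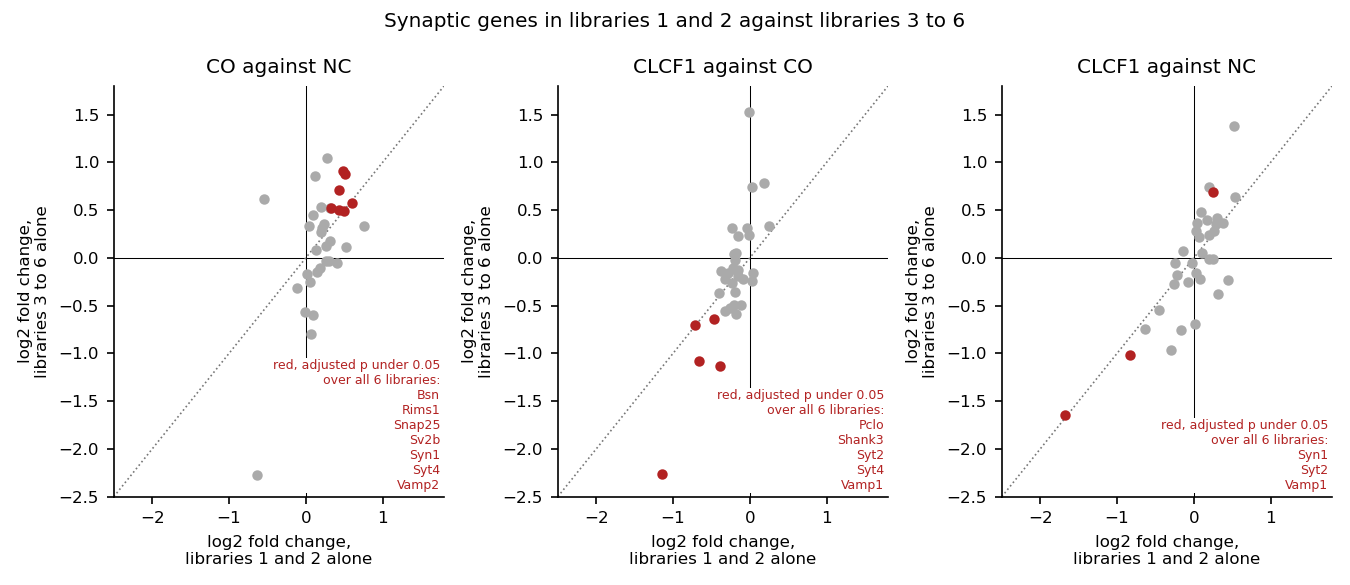
Log2 fold change of each of the 34 genes from libraries 3 to 6 alone against that from libraries 1 and 2 alone, in the 3 comparisons, with the dotted line marking equal values. Red points are the genes named in each panel, which were picked for passing over all 6 libraries, so their position in both sets is no independent support. For all points, whether libraries 3 to 6 are independent of libraries 1 and 2 was not tested. Syt2 lies lowest in CLCF1 against CO, at -1.14 from libraries 1 and 2 and -2.26 from libraries 3 to 6.

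Other synaptic genes were read from 5 lists that do not hold the 34. Over the 5 lists 107 genes were tested, of which 7.48% rose and 0.935% fell in CO against NC, 1.87% rose and 8.41% fell in CLCF1 against CO, and 3.74% rose and 2.80% fell in CLCF1 against NC. The shares that rose in the first of these and fell in the next were near those of all genes tested (6.32% and 8.34%). The shares in the opposite directions, 0.935% and 1.87%, were below those of all genes tested (6.40% and 8.63%). Of 31 further vesicle and release genes, 2 rose in CO against NC and none fell. Syt3 was among them (36.1 ± 6.11 to 50.9 ± 4.46 CPM, log2 fold change 0.50 ± 0.14, adjusted p = 0.0234, and 0.36 in libraries 1 and 2 alone). In CLCF1 against CO, 5 of the 31 fell and 1 rose. The falls included Syt3 (-0.58 ± 0.14, adjusted p = 0.00769, and -0.49 in libraries 1 and 2 alone), the complexin gene Cplx3 (-0.66 ± 0.16, adjusted p = 0.00897, and -0.71) and Syt11 (-0.41 ± 0.10, adjusted p = 0.0122, and -0.27), and the rise was Doc2a, a sensor for asynchronous and spontaneous release. In CLCF1 against NC, Doc2a and Synpr rose and Cplx3 fell.

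Of 16 further active zone genes, Ppfia3, which encodes liprin-alpha-3, and Lin7b rose in CO against NC (0.63 ± 0.14, adjusted p = 0.00869, and 0.53 ± 0.17, adjusted p = 0.0446), with 0.45 and 0.42 in libraries 1 and 2 alone. Most of the 16 went the other way, with 10 negative and 6 positive values and a median log2 fold change of -0.15. In CLCF1 against CO 10 were positive and 6 negative, with a median of 0.32. Ppfia3 was then lower in CLCF1 than in CO (-0.58 ± 0.14, adjusted p = 0.00993, and -0.47 in libraries 1 and 2 alone), the single call of that list there, while CLCF1 against NC had Rims3 higher and Lin7a lower. The 11 vesicle endocytosis genes tested held no call in either comparison with NC, and Bin1 was lower in CLCF1 than in CO (-0.33 ± 0.08, adjusted p = 0.0116, and -0.27 in libraries 1 and 2 alone). Of 27 further postsynaptic genes, Dlgap2 and the PDZ protein gene Pick1 rose in CO against NC, Kalrn fell and Grip1 rose in CLCF1 against CO, and none passed in CLCF1 against NC. Of 22 further adhesion genes, Nrxn2 and Lrrtm3 rose and Cbln4 fell in CO against NC, Clstn3 fell in CLCF1 against CO, and Nrxn2 rose and Slitrk3 fell in CLCF1 against NC.

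Markers of other cells and of brain regions also differed between the groups, and their part in the synaptic results was not tested. Counts in these lists stand beside shares over all genes of 6.32% higher and 6.40% lower in CO against NC, 8.63% and 8.34% in CLCF1 against CO, and 4.43% and 4.84% in CLCF1 against NC. The 14 neuronal genes outside the synapse summed to 4928 to 5290.2 CPM in NC, 5423 to 6694 in CO and 4368 to 5453 in CLCF1. Of these, Elavl4, Eno2, Thy1 and Ina rose in CO against NC, and Nefl, Nefm, Eno2, Thy1 and Ina fell and Map2 rose in CLCF1 against CO. Eno2 had the largest log2 fold changes, 4.05 and then -2.78 (2.17 and -1.78 in libraries 1 and 2 alone). The medians of the 14 genes were 0.23 and -0.38. Excitatory markers summed to 836 to 1049.8 CPM in NC, 1186 to 1555 in CO and 886 to 1333 in CLCF1, with 2 of 5 tested higher in CO against NC, among them the vesicular glutamate transporter gene Slc17a7. Cortex and hippocampus markers summed to 1301 to 2331 CPM in NC, 2360.2 to 3115 in CO and 1826 to 3245 in CLCF1, with 2 of 8 higher in CO against NC and 2 lower in CLCF1 against CO. Striatal markers summed to 328 to 1814, 1589 to 2866 and 427 to 1812 CPM in the same order. Of 8 tested, 1 was higher in CO against NC (Penk), and a different gene, Drd2, was lower in CLCF1 against CO. Inhibitory markers summed to 761 to 1307, 785 to 1203 and 792 to 1197 CPM. Of 6 tested, 1 fell and 5 did not pass in CLCF1 against CO, with 4 negative and 2 positive values. The gene that fell was Pvalb, a marker of fast-spiking interneurons (-0.67 ± 0.20, adjusted p = 0.0291, and -0.50 in libraries 1 and 2 alone).

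Brainstem and monoamine markers summed to 39.2 to 291 CPM in NC, 23.2 to 72.0 in CO and 26.2 to 64.9 in CLCF1. Of 7 tested, 3 were lower in CO against NC, 5 were lower in CLCF1 against NC, and 2 were higher and 1 lower in CLCF1 against CO. Slc6a5, the glycine transporter gene of brainstem and spinal cord terminals, was lower in CLCF1 than in NC (-1.39 ± 0.36, adjusted p = 0.0203, and -1.12 in libraries 1 and 2 alone) and in CO (-1.24 ± 0.36, adjusted p = 0.0224, and -0.84). The 2 higher than in CO were Th, which encodes tyrosine hydroxylase, and the dopamine transporter gene Slc6a3. Th had a mean of 25.6 ± 14.9 CPM in CLCF1 and 4.09 ± 3.69 in CO (2.64 ± 0.83, adjusted p = 0.0351, and 2.28 in libraries 1 and 2 alone). Slc6a3 had 1.82 ± 1.78 CPM in CLCF1 and 0.0637 ± 0.129 in CO (4.72 ± 1.31, adjusted p = 0.0189, and 3.28 in libraries 1 and 2 alone), where the few CO counts leave the size of the fold change uncertain. Fibroblast and pericyte markers summed to 392 to 469 CPM in NC, 121 to 212 in CO and 249 to 394 in CLCF1, with 7 of 8 lower in CO against NC and 3 higher in CLCF1 against CO. Ependyma and choroid plexus markers summed to 4.98 to 106 CPM in NC, 1.46 to 33.8 in CO and 9.49 to 5794 in CLCF1, with 5 of 5 higher in CLCF1 against CO. Thalamic markers summed to 83.9 to 289, 27.9 to 115 and 87.1 to 183 CPM. Of 6 tested, 1 was lower in CO against NC (Tcf7l2), and a different gene, Calb2, was higher in CLCF1 against CO. Astrocyte, oligodendrocyte, microglia, endothelial and cerebellar lists held 0 to 2 calls in each comparison. All 8 astrocyte values were negative in CO against NC (median -0.28). In CLCF1 against NC 7 were negative and 1 positive, and 2 were called lower. In CLCF1 against CO 5 were positive and 3 negative. All 8 oligodendrocyte values were negative in CLCF1 against CO (median -0.41). In CO against NC 7 of them were positive and 1 negative (median 0.09). Microglia, endothelial and cerebellar values had both signs in every comparison. Cldn5 and Hoxb5 were at 0 in all libraries.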

How the data were processed

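RNA-seq of rat brain gave 18 libraries in 3 groups of 6, assigned by sample title. The authors deposited 1 unnormalized table of raw gene counts. Neither aligner nor counter nor strandedness is given in the sources used here. Per the submitters' processing notes the builds are GRCm38 and mm10, both of mouse, although the table holds rat gene IDs, so table coordinates carry no build. Per the labels' protocols, libraries were made from column-purified total RNA with a SMARTER mRNA-Seq kit.

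Counts were tested with edgeR 4.0.16 (R 4.3.3), using TMM scaling, filterByExpr and a robust quasi-likelihood fit of all 18 libraries, with Benjamini-Hochberg adjustment over 16581 genes and a threshold of 0.05. The biological coefficient of variation was 0.312. CPM used the same scaling, and a standard error is the fold change over the root of its F value. The 34 genes, their roles, the 5 lists and the marker lists were chosen with earlier results of these data known. Members were named with values if they passed in a comparison or had the highest or lowest fold change of their role there, and up to 3 passing genes were named per list, others by symbol only; a few genes are not reported here. Amph, Neurod2, Pecam1 and Foxj1 had no row by symbol. Alternatives tried were a block for library number, DESeq2 1.42.0 size factors or library size alone, no or a stricter filter, DESeq2, only the compared groups, libraries 1 and 2 or 3 to 6 alone, and leaving out each library. The fit was tested on simulated counts. Totals ran from 15.1 to 20.3 M counts. Values from libraries 1 and 2 alone for genes outside the 34 were added after the data were seen.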

Additional observations from a re-analysis of the deposited data

Results flagged for a closer look

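In 102 combinations of a synaptic gene and a group, 9 had a library whose gap to the nearest other library took up more of the group's range than Dixon's 95% limit for 6 samples. Chance flags about 1 in 20 groups. Dlgap1 was at 576 CPM in CO library 6, against 235 in the next library, and the same library was high for Syn2 (377 CPM, next 243). Syt2 was at 32.3 CPM in CO library 3 (next 13.5) and at 17.96 CPM in NC library 1 (next 10.7). NC library 6 was high for Syt4 (348 CPM, next 260.1) and low for Sv2a (224 CPM, next 356). Unc13a was at 151 CPM in NC library 4 (next 63.4). Dlg4 was at 1167 CPM in CLCF1 library 3 (next 785), and Rims1 at 198 CPM in CLCF1 library 5 (next 124). The difference in Syt2 between CLCF1 and CO kept its call without CO library 3, at -1.37.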

How the results depend on the processing

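Over the 15 calls of single synaptic genes, 252 of 315 alternative values kept direction and call, 63 kept direction and lost the call, and 0 changed direction. The 15 were picked for passing over all libraries, and each alternative used the same libraries or part of them. A kept direction is therefore no independent support. With values in the order of the report (CO against NC, then CLCF1 against CO, then CLCF1 against NC), 2110, 2814 and 1536 of all genes passed, 4291, 5645 and 4292 without a filter, 4, 8 and 2 from libraries 1 and 2 alone, and 918, 1436 and 736 from libraries 3 to 6 alone. DESeq2 called 2334 in CLCF1 against NC. Of the 34 genes, 7, 5 and 3 passed, 0, 0 and 0 from libraries 1 and 2 alone, 2, 3 and 0 from libraries 3 to 6 alone, and in CLCF1 against NC 6 passed both without a filter and with DESeq2. Leaving out 1 library at a time gave 1672 to 2137, 2427 to 3033 and 1219 to 1692 of all genes, and 4 to 7, 4 to 6 and 2 to 5 of the 34. The count in CO against NC was 4 without NC library 1, 3 or 5 or CO library 6, and that in CLCF1 against NC was 5 without NC library 2. From libraries 3 to 6 alone Snap25 (higher) and Sv2c (lower) passed in CO against NC, and Syt2, Pclo and Shank3 (lower) in CLCF1 against CO. Of the 90 calls in the 5 lists and the marker lists, 0 passed when only libraries 1 and 2 of each group were fitted, a setting added once the data had been seen. The causes were not tested. Whether the library numbers pair the samples was not settled. Deviations of same-numbered libraries correlated at -0.03 to 0.15 over 18 pairs, 1 of them over 0.1, and 7 of 18 libraries correlated best with their own number. Every correlation was positive for numbers 1 and 2, from 0.004 to 0.15. For numbers 3 to 6 they ran from -0.03 to 0.02. With the number as a replicate block, 1944, 2787 and 1477 of all genes and 8, 4 and 4 of the 34 passed, adding Shank3 in CO against NC (0.63, adjusted p = 0.0300 from edgeR) and Syt1 in CLCF1 against NC (0.39, adjusted p = 0.0337), and leaving Vamp1 in CLCF1 against CO at -0.67 (adjusted p = 0.0503).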
